A study of Drosophila melanogaster with 12 samples.

Results

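The regions described here are the autosome arm sites at which ORC2 was listed in the 2nd instar and mid-3rd instar larval fat body but no longer in late-3rd instar wandering larvae. They were selected on the deposited peak lists themselves: a merged 2nd instar region on 2L, 2R, 3L or 3R was taken when the merged mid-3rd instar list had a region within 1 kb of it and the late-3rd instar list had none. The rule took 1016 of 3630 merged 2nd instar regions on the 4 arms, 28.0% of them, and of 4239 such regions over all chromosomes. They are called regions lost by wandering below, which says that no region was listed nearby in late-3rd instar and not that ORC2 was shown to be absent. Of the other arm regions, 308 were within 1 kb of regions of both later stages, 109 of a late-3rd instar region only and 2197 of neither.

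ORC2 is a subunit of the origin recognition complex (ORC), which marks the sites where DNA replication can start and on which the MCM helicase is loaded. The larval fat body stores fat, glycogen and protein for metamorphosis, and its cells become polyploid through endocycles, repeated rounds of DNA synthesis with no division between them. In Drosophila cells ORC sits where chromatin is open, often at promoters, and no single DNA sequence defines its sites.

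All libraries came from wild-type male OregonR larvae raised at 25C, so sex, strain and genotype were shared by every group. The 2nd instar larvae were 67 to 68 h after egg laying (AEL), the mid-3rd instar larvae were 91 to 92 h AEL, and the late-3rd instar larvae were picked by wandering. Each stage had 2 ORC2 ChIP-seq libraries and 2 input libraries, 12 in all, made from fat bodies pooled from many dissected larvae after the testes were removed. The lists hold positions and names, and for high-confidence peaks the irreproducible discovery rate (IDR), so signal heights and read depths were not analysed here, and the tissue cannot be checked against expressed markers.

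The libraries were unequal, and the choice of regions rests on this. On the arms, replicates 1 and 2 gave 3733 and 3327 peaks at 2nd instar, 745 and 1618 at mid-3rd instar, and 248 and 381 at late-3rd instar. The merged lists accordingly held 3630, 1674 and 549 arm regions, and the high-confidence lists 695, 233 and 28. Shorter lists leave more 2nd instar regions without a neighbour, and the loss of sites and the loss of detection at late-3rd instar cannot be told apart from these lists.

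At 2nd instar, 880 of the 1016 regions held a peak of replicate 1 and 808 a peak of replicate 2. At mid-3rd instar a region with a replicate 1 peak was within 1 kb of 380 of them (37.4%), and one with a replicate 2 peak was within 1 kb of 892 (87.8%). Most of these regions therefore entered through mid-3rd instar replicate 2. At late-3rd instar the counts were 0 and 0, as the rule required. The 308 regions listed at all 3 stages were found more evenly, in 214 cases near replicate 1 and in 280 near replicate 2 at mid-3rd instar. Their late-3rd instar neighbours came from replicate 1 for 72 regions and from replicate 2 for 277, so most of the late-3rd instar neighbours were found by 1 library.

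**Figure D1:**
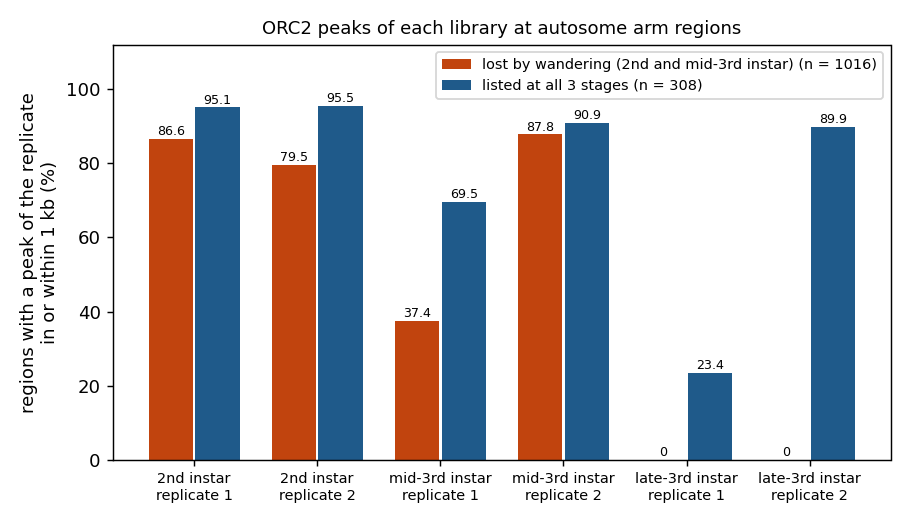
Percentage of autosome arm regions (y axis) with an ORC2 peak in each of the 6 ChIP libraries (x axis), for the 1016 regions lost by wandering and the 308 listed at all 3 stages. At 2nd instar a peak inside the region was required and at later stages a region with a peak of the replicate within 1 kb, and mid-3rd instar replicate 1 reached 37.4% of the lost regions against 87.8% for replicate 2.

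Both 2nd instar replicates had a peak in 672 of the 1016 regions, 66.1% (Wilson 95% interval 63.2 to 69.0), where 54.5% of all arm regions did. The share was 43.9% (41.8 to 46.0) among regions listed only at 2nd instar and 90.6% (86.8 to 93.4) among those listed at all stages, so the lost regions lay between these classes. A 2nd instar high-confidence peak, which passed an IDR of 0.1 between replicates, overlapped 264 of them, 26.0% against 18.8% of all arm regions. At mid-3rd instar a high-confidence peak overlapped 107, and 48 were of high confidence at both stages. The lists share the peaks that chose the regions, so these shares are descriptions of the regions and no test was run on them. The intervals here and below treat regions as independent and cover counting error only.

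Only 200 regions (19.7%) had support from both replicates at both stages. The most frequent pattern was both replicates at 2nd instar with replicate 2 alone at mid-3rd instar, in 385 regions. A further 180 regions were seen in replicate 1 alone at 2nd instar and in replicate 2 alone at mid-3rd instar, against 9 in replicate 1 alone at both stages. In replicate 2 alone at 2nd instar, 71 were in replicate 2 alone and 28 in replicate 1 alone at mid-3rd instar. Over all arm regions, of 1021 regions found only in 2nd instar replicate 1, 34 (3.33%) were near a region of mid-3rd instar replicate 1 and 213 (20.9%) near one of replicate 2. Of 632 found only in 2nd instar replicate 2, 72 (11.4%) were near mid-3rd instar replicate 1 and 123 (19.5%) near replicate 2. Mid-3rd instar replicate 2, with the longer list, was near like shares of both sets, and replicate 1 was near a larger share of the replicate 2 set. Replicate numbers were taken as labelled, and whether a number stands for the same larvae, batch or preparation at 2 stages is not given in the sources used here. The single-replicate choices below hold only for this numbering.

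The choice was repeated with the merged regions that held a peak of 1 replicate, and the result was read in the other replicate. Merged edges were kept, so the other replicate had a part in setting them and was not fully left out. With replicate 1 alone at every stage, 478 arm regions met the rule. In replicate 2, 75.1% of these (71.0 to 78.8) had a mid-3rd instar region within 1 kb, against 26.1% (24.4 to 27.9) of the 2396 regions that replicate 1 found near no later region. With replicate 2 alone 717 regions met the rule, and replicate 1 had a mid-3rd instar region near 34.3% (30.9 to 37.9) of them, against 7.37% (6.19 to 8.76) of 1587 regions near no later region. Beside all regions of the choosing replicate, of which 35.0% and 21.5% had such a neighbour, the chosen regions also had the higher share in both directions. The chosen regions were already found more often by the other replicate at 2nd instar, 93.7% against 59.8% of those near no later region with replicate 1 choosing and 84.8% against 68.2% with replicate 2, and the part of this in the mid-3rd instar shares was not tested. For the loss at late-3rd instar neither direction showed a clearly lower share at the chosen regions. Of the 478 regions chosen in replicate 1, 34.1% (30.0 to 38.5) did have a late-3rd instar region in replicate 2. This was more than the 10.2% of all 2998 replicate 1 regions and the 4.01% (3.29 to 4.87) of those near no later region. Of the 717 chosen in replicate 2, 3.35% (2.26 to 4.93) had one in replicate 1. The share was 4.33% (3.61 to 5.18) of all 2609 replicate 2 regions and 2.9% (2.18 to 3.84) of those near no later region. Both of these intervals overlapped that of the 717. Of regions kept at all stages in replicate 1, 70.5% (31 of 44) had a late-3rd instar region in replicate 2. Of those kept in replicate 2, only 14.5% (35 of 242) had one in replicate 1. Late-3rd instar replicate 1 thus found few neighbours even of kept regions, and its low share at the 717 says little about loss.

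The lost regions were short, with a median width of 667 bp, and 318 of them were at 600 bp, the narrowest width in the list. Those listed only at 2nd instar had a median of 600 bp and those listed at all stages of 692 bp. The lost regions matched 999 distinct mid-3rd instar regions, and 931 overlapped one directly while 85 only lay within 1 kb. Their nearest late-3rd instar region was at a median of 52218 bp, with 521 regions over 50 kb away and 103 within 5 kb.

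The rule has 2 distance thresholds. The 3 regions just inside the mid-3rd instar distance were 982, 995 and 999 bp from a mid-3rd instar region, and the 3 just outside were 1021, 1023 and 1028 bp away. The first of these on either side were at a pair of lysine tRNA genes on 2R and between alt and CG7655 on 3R. The 3 lost regions nearest to a late-3rd instar region were 1031, 1041 and 1056 bp from it, over par-1, at Lsp1gamma and beside a pair of alanine tRNA genes. The 3 regions listed at all stages that were nearest to this threshold lay at 761, 817 and 905 bp.

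Chromosome 2L held 294 of the lost regions, 32.3% (29.4 to 35.5) of its 909 regions. The shares were 26.0% (221 of 849) on 2R, 27.6% (256 of 928) on 3L and 26.0% (245 of 944) on 3R, and their intervals overlapped one another. When the 30 regions of 2L at histone genes were left out, its share was 30.9% (28.0 to 34.1), which overlapped the intervals of the other arms.

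The regions lost by wandering lay close to the ends of genes. The table of genes used gives no strand, so a gene end is its start or its stop in Release 6 coordinates. The midpoint of 683 of the 1016 regions lay within 1 kb of a gene end, 67.2% (64.3 to 70.0), where 60.4% of all arm regions did. The share was 57.9% (55.8 to 59.9) for regions listed only at 2nd instar, 63.6% (58.1 to 68.8) for those listed at all stages and 39.4% (30.8 to 48.8) for those listed at 2nd and late-3rd instar. The interval of the lost regions thus lay above that of regions listed only at 2nd instar and overlapped that of regions listed at all stages. The median distance to a gene end was 282 bp for lost regions, 462 bp for those of all stages and 508 bp for those of 2nd instar only.

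Regions found in both replicates differ between classes, so the share was also read among them alone. It was 68.6% (65.0 to 72.0) of 672 lost regions and 60.7% (57.6 to 63.7) of 964 regions listed only at 2nd instar. For 279 regions of all stages it was 66.3% (60.6 to 71.6), which overlapped the lost regions. Among regions at the narrowest width it was 65.7% (60.3 to 70.7) of 318 lost regions and 56.1% (53.2 to 58.9) of 1173 listed only at 2nd instar. Only 27 regions of all stages had this width, with a share of 29.6% (15.9 to 48.5). By arm the share of lost regions was lowest on 3L, 60.2% (54.1 to 66.0), close to the 60.4% of all arm regions. It was highest on 2R, at 74.2% (68.1 to 79.5). The share of other regions was not read by arm, so a higher share is not shown for each arm.

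**Figure D2:**
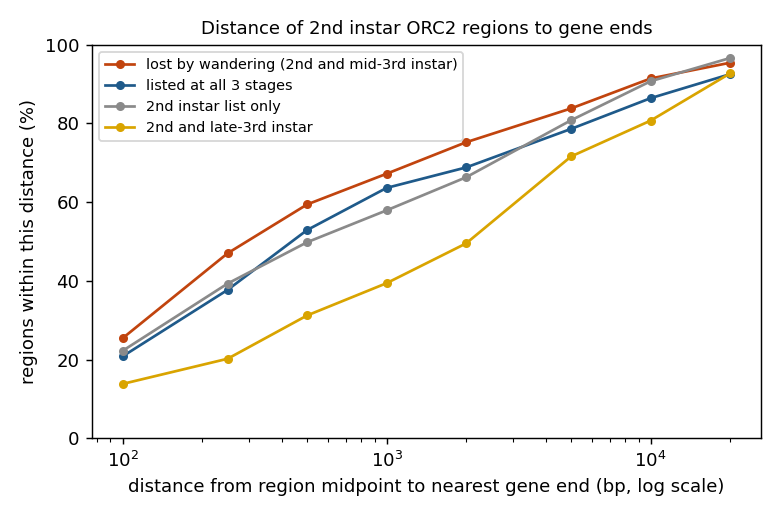
Percentage of 2nd instar ORC2 regions (y axis) whose midpoint lies within a given distance of a gene end (x axis, bp, log scale), 1 line per class of arm regions. The line of the lost regions is the highest at 1 kb, with 67.2%, and that of regions listed at 2nd and late-3rd instar the lowest, with 39.4%.

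Fewer of the lost regions lay inside genes. The midpoint fell inside a gene for 608 regions, 59.8% (56.8 to 62.8), against 69.3% of all arm regions and 75.6% (73.8 to 77.4) of regions listed only at 2nd instar. Among regions of both replicates the shares were 61.2% (57.4 to 64.8) and 75.7% (72.9 to 78.3). Regions listed at all stages, at 55.2% (49.6 to 60.7), overlapped the lost regions in this measure. The ends of 2 or more genes lay within 1 kb of 500 lost regions, 49.2% (46.1 to 52.3), against 39.8% (37.8 to 41.8) of regions of 2nd instar only and 40.9% (35.6 to 46.5) of those of all stages. The interval of the lost regions lay above that of regions of 2nd instar only and just overlapped that of regions of all stages.

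**Figure D3:**
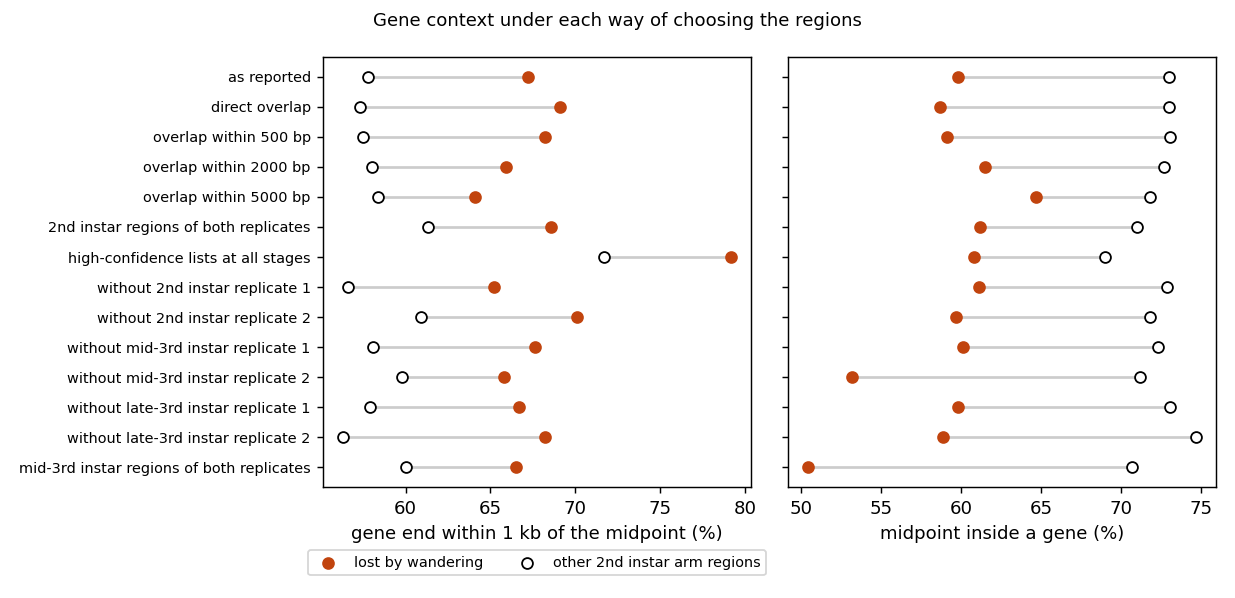
Percentage of regions with a gene end within 1 kb (left x axis) and with the midpoint inside a gene (right x axis), for lost regions (filled) and all other 2nd instar arm regions (open), with 1 row for each way of choosing the regions. The lost regions are to the right on the left panel and to the left on the right panel in every row, with 67.2% against 57.8% and 59.8% against 73.0% as reported.

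Named next are the 15 lost regions with the lowest 2nd instar IDR among those of high confidence at both stages. Only 48 of the 1016 lost regions (4.72%) were of high confidence at both stages. These 15 are thus a selected tail and not typical of the lost regions. The first lay on 2L at chr2L:10407940-10408603 between Ir31a and the shared end of RpS27A, which encodes a ubiquitin fused to a ribosomal protein, and Ip259, with 1 peak in each replicate at 2nd and at mid-3rd instar, an IDR of 1.9e-05 and then of 0.0568, and the nearest late-3rd instar region 19543 bp away. The second, at chr3R:11763315-11764869, held 2 and 1 peaks of 2nd instar replicates 1 and 2 at the end of Lk6, a protein kinase that phosphorylates eIF4E, with IDRs of 2.23e-05 and 0.0736. Each of these had a mid-3rd instar peak in both libraries and none nearby in late-3rd instar. The third was also the widest lost region, 7874 bp at chr2R:11185477-11193350 inside shn, a zinc finger transcription factor of Dpp signalling. It held 5 peaks of each 2nd instar replicate but 1 of each at mid-3rd instar, with IDRs of 5.81e-05 and 0.0681.

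The others of the 15 were mostly at gene ends too. They lay between mRpL13 and tup (IDR 7.55e-05 and 0.028), by the ends of Set1, a histone H3K4 methyltransferase, and MED21, a Mediator subunit (0.00033 and 0.0336), and at CG3107 (0.000406 and 0.0406). Further ones lay inside Hph, the oxygen-sensing prolyl hydroxylase (0.000465 and 0.0581), at eEF1alpha1, which brings tRNAs to the ribosome (0.000587 and 0.0348), and at CG14464 (0.00101 and 0.0345). The remaining 6 were at Sqor, Best1, CtsL4 and ClpP, brp, CG11052 and Sf3b2, with 2nd instar IDRs from 0.00285 to 0.00678 and mid-3rd instar IDRs from 0.0199 to 0.0998. Chosen for a low 2nd instar IDR, all 15 had the higher IDR at mid-3rd instar, while over all 48 lost regions of high confidence at both stages it was higher at mid-3rd instar in 31 and lower in 17.

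**Figure D4:**
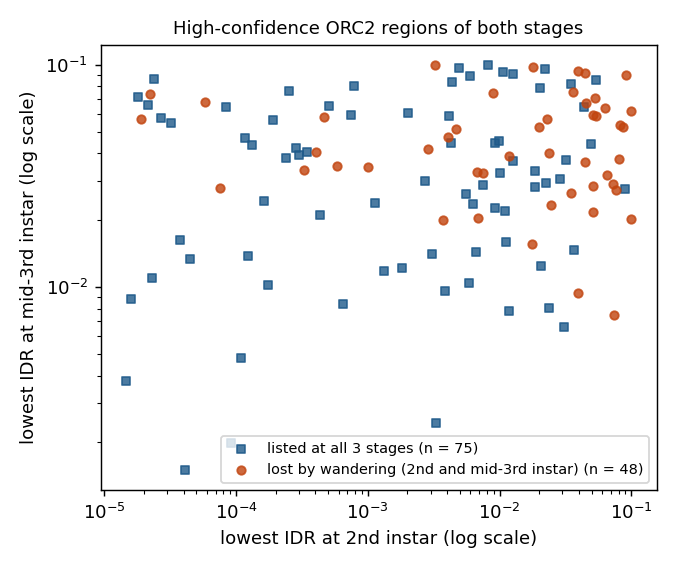
Lowest IDR at mid-3rd instar (y axis, log scale) against lowest IDR at 2nd instar (x axis, log scale) for arm regions of high confidence at both stages, 48 lost by wandering and 75 listed at all 3 stages. The lost region furthest to the left, at RpS27A, had an IDR of 1.9e-05 at 2nd instar and of 0.0568 at mid-3rd instar.

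Over all high-confidence regions, the median 2nd instar IDR was 0.0374 for 264 lost regions, 0.00997 for 172 listed at all stages and 0.0551 for 227 listed only at 2nd instar. The other wide lost regions were on 2R inside EcR, which encodes the ecdysone receptor, with 7678 bp and 4 peaks of each 2nd instar replicate and 2 of each at mid-3rd instar, and on 3L over Baldspot, a fatty acid elongase, with 7519 bp and 5 and 7 peaks at 2nd instar but 0 and 1 at mid-3rd instar.

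Genes were then read in lists by their role. A gene was counted when 1 of its ends lay within 1 kb of a lost region, which held for 1648 of 14865 genes on the arms, 11.1%. Regions listed at all stages reached 3.07% of genes and regions of 2nd instar only 18.1%. Neighbouring genes can share a region, so genes of a list are not independent. A gene near regions of more than 1 class was counted in each, so the counts of classes overlap. The share of all genes near a lost region fell to 4.53% without mid-3rd instar replicate 2 and to 3.19% with mid-3rd instar regions of both replicates only, and the counts of lists under these settings are to be read beside those shares.

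Genes for fat storage and sugar metabolism were among those with a lost region, 8 of 18 (44.4%), through 10 regions, while 6 of the 18 were at regions of 2nd instar only and 0 at regions of all stages. A region of 2510 bp at chr2L:3056972-3059481, inside FASN1 and within 1 kb of the end of its neighbour FASN2, both fatty acid synthase genes, held 2 peaks in each 2nd instar replicate and 3 and 2 peaks in the mid-3rd instar replicates, and the nearest late-3rd instar region was 40828 bp away. A second at the other end of FASN1 held 1 and 2 peaks and then 2 and 1. Both FASN1 regions were thus seen in all 4 libraries of the first 2 stages. Pepck2, a phosphoenolpyruvate carboxykinase, had 2 lost regions, each with peaks in all 4 libraries, 1 and 1 then 1 and 2 in one and 1 and 2 then 1 and 2 in the other.

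SREBP, the transcription factor that drives lipid synthesis genes, had 1 peak in each of the 4 libraries, but a late-3rd instar region lay 1832 bp away. The lipase gene bmm had a lost region at each end, with 1 and 1 peaks and with 2 and 1 peaks at 2nd instar, and at mid-3rd instar both had 0 peaks of replicate 1 and 1 of replicate 2. Glyp (glycogen phosphorylase), mdy (a diacylglycerol acyltransferase) and fbp (fructose-1,6-bisphosphatase) each had 1 peak in each 2nd instar replicate and mid-3rd instar peaks of replicate 2 only. When mid-3rd instar replicate 2 was left out, 4 genes of the list were counted.

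Of 11 genes for abundant fat body products 6 were at a lost region, 2 at a region of all stages and 1 at a region of 2nd instar only. Lsp1beta and Lsp1gamma encode larval serum proteins, the storage proteins that the fat body secretes. At Lsp1beta 2nd instar replicates 1 and 2 had 0 and 1 peaks and mid-3rd instar 1 and 1, and at Lsp1gamma 0 and 1 and then 1 and 0. Their late-3rd instar neighbours were 1656 and 1041 bp away, so both stood close to the threshold of the rule. The ferritin genes Fer1HCH and Fer2LCH share 1 region with 1 and 1 and then 0 and 1 peaks. At Adh (alcohol dehydrogenase) the peaks were 2 and 0 and then 0 and 2, so no replicate number had peaks at both stages, and at Cyp4e2, a cytochrome P450, 2 and 1 and then 0 and 1. With mid-3rd instar regions of both replicates only, 0 of the 11 genes were counted. Mid-3rd instar peaks are summed over all mid-3rd instar regions within 1 kb, and those of the replicates at Lsp1beta were thus in different regions.

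Genes for ribosomal proteins and translation factors were at lost regions in 28 of 121 cases (23.1%), through 28 regions, with 10 at regions of all stages and 32 at regions of 2nd instar only. RpL10 was in a wide region of 4228 bp with 3 and 2 peaks at 2nd instar, an IDR of 2.94e-05, and 1 and 1 peaks at mid-3rd instar. RpL30 had 1 and 1 peaks with an IDR of 0.00048 and then 1 and 0, and RpL23 had 1 and 1 peaks with an IDR of 0.0024 and then 1 and 1. The initiation factor gene eIF4A, an RNA helicase, had 1 peak in each of the 4 libraries, and eIF4E1, the cap-binding protein, had 1 and 1 and then 0 and 1. Not all were so well supported: RpL36A, RpS16, RpL27A and RpL21 each had 1 and 0 and then 0 and 1. The list counted 13 genes without mid-3rd instar replicate 2 and 9 with mid-3rd instar regions of both replicates only.

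The histone genes form a tandem array on 2L, and 86 of 124 histone genes and pseudogenes on the arms (69.4%) were at a lost region, through 22 regions. At a region of all stages were 30 of the 124, and 0 were at a region of 2nd instar only. The counts of 86 and 30 overlap. The group with the most lost regions within 50 kb on the arms was in this array, with 12 in 48377 bp from position 21486863 to 21535239 of 2L, among 13 2nd instar regions there, and all 12 had mid-3rd instar peaks of both replicates. A second stretch of the array, from 21418318 to 21469509, held 7 lost regions with both mid-3rd instar replicates beside 4 that were listed at all stages. The array thus held lost and kept regions side by side, and with a distance of 5 kb in the rule only 42 histone genes were counted. Its copies are nearly identical, so a read cannot be assigned to 1 copy and these regions are uncertain one by one.

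Of 269 tRNA genes 71 (26.4%) were near a lost region, through 32 regions, 23 near a region of all stages and 64 near a region of 2nd instar only. The one of high confidence at both stages lay on 2R at chr2R:19725540-19727488, within 1 kb of 2 initiator methionine tRNA genes and 4 glutamate tRNA genes, with 1 and 2 peaks at 2nd instar and 2 and 1 at mid-3rd instar, and IDRs of 0.0396 and 0.00939. On 3R 2 neighbouring regions at a set of lysine tRNA genes, tRNA:Lys-TTT-2-1 to tRNA:Lys-TTT-2-4, each had 1 peak in all 4 libraries. The tRNA count was 40 without mid-3rd instar replicate 2 and 23 with mid-3rd instar regions of both replicates only.

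Genes of small nuclear and nucleolar RNAs were near lost regions in 49 of 272 cases (18.0%), 24 near regions of all stages and 48 near those of 2nd instar only. The count at lost regions was 22 without mid-3rd instar replicate 2 and 19 with mid-3rd instar regions of both replicates only. Of 30 snRNA genes, most of which serve in splicing, 10 were at lost regions, through 6 regions, 7 at regions of all stages and 0 at regions of 2nd instar only. A region of 3452 bp on 2L covered snRNA:U2:38ABa and snRNA:U2:38ABb and lay within 1 kb of snRNA:U5:38ABa and snRNA:U5:38ABb, with 2 and 3 peaks at 2nd instar and 2 and 1 at mid-3rd instar. At snRNA:U4:39B, snRNA:U1:82Eb and the region shared by snRNA:U2:34ABc and snRNA:U5:34A, each of the 4 libraries had 1 peak.

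Of 23 heat shock genes 7 were at lost regions, 7 at regions of all stages and 2 at regions of 2nd instar only. The count at lost regions was 3 without mid-3rd instar replicate 2 and 12 without late-3rd instar replicate 2. Hsp70Bbb had 1 peak in each of the 4 libraries, and Hsp70Bb and Hsp70Bc shared a region with 0 and 1 and then 1 and 1. The nearest late-3rd instar neighbours were 2706 and 2605 bp from these, and 4 heat shock genes were counted at a distance of 5 kb. The Hsp70 genes are near-identical copies, so these values are uncertain. Hsp68, with 1 and 1 and then 0 and 1 peaks, and Hsp22 with Hsp67Bc, with the same counts, lay over 10 kb from the nearest late-3rd instar region, at 20161 and 10104 bp.

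The lists of hormone and growth pathways were short. The ecdysone response list had 3 of 13 genes at lost regions (23.1%), with 4 at regions of 2nd instar only. EcR was not among the 3, since genes were counted by their ends. The midpoints of the lost regions chr2R:6138582-6146259 and chr2R:6164709-6167385 did lie inside it. Hr39, a nuclear receptor, had 1 and 1 peaks and then 1 and 0, E23, an ABC transporter gene, 2 and 1 and then 0 and 1, and MsrA, a methionine sulfoxide reductase, 1 and 0 and then 1 and 0. The insulin and TOR list had 2 of 14 (14.3%), with 5 at regions of all stages and 4 at regions of 2nd instar only. These were Pi3K21B, the PI3 kinase regulatory subunit, with 1 and 1 peaks (IDR 0.00939) and then 1 and 0, and foxo, the transcription factor that insulin signalling restrains, with 2 and 2 (IDR 0.0378) and then 0 and 1. With late-3rd instar replicate 2 left out, 5 insulin and TOR genes were counted.

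The replication list holds genes of the replication machinery and also cell cycle and heterochromatin genes. Of its 27 genes 2 (7.41%, 2.06 to 23.4) were at lost regions, where 11.1% of all genes were. At a region of all stages was 1, and 8 were at regions of 2nd instar only. The gene dup, the Drosophila Cdt1 that loads MCM with ORC, had a lost region by each end. The wider, of 5009 bp, held 4 and 2 peaks and then 1 and 3, with an IDR of 0.0257 at mid-3rd instar, and the narrower 1 and 1 and then 0 and 1. Mcm7, a subunit of the helicase, had 1 and 1 and then 0 and 1.

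Of 42 immune genes 5 (11.9%) were at lost regions, through 3 regions, close to the 11.1% of all genes, and 10 at regions of 2nd instar only. All 5 encode peptidoglycan recognition proteins, and the list took in every gene with a name that starts with PGRP. PGRP-LF had 3 and 1 peaks and then 1 and 1, with IDRs of 0.0361 and 0.0752. PGRP-LA and PGRP-LC shared a region with 3 and 2 and then 1 and 1, and PGRP-SB1 and PGRP-SB2 one with 1 and 0 and then 0 and 1. With mid-3rd instar regions of both replicates only, 1 immune gene was counted. The mid-3rd instar peaks of the replicates at PGRP-LA and PGRP-LC were thus in different regions.

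Marker genes of other tissues were read in the same way, since hand-dissected fat body can hold other cells. Of 7 salivary gland, 4 muscle and 6 testis marker genes 0 were at a lost region, and 1, 2 and 2 were at regions of 2nd instar only. Of 5 haemocyte markers 2 were at a lost region, NimC1 with 1 and 1 and then 0 and 1 peaks and Hml with 1 and 0 and then 0 and 1, and 0 remained when mid-3rd instar replicate 2 was left out. ORC2 near a gene is no measure of its expression, and the part of other cells in these regions was not tested.

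**Figure D5:**
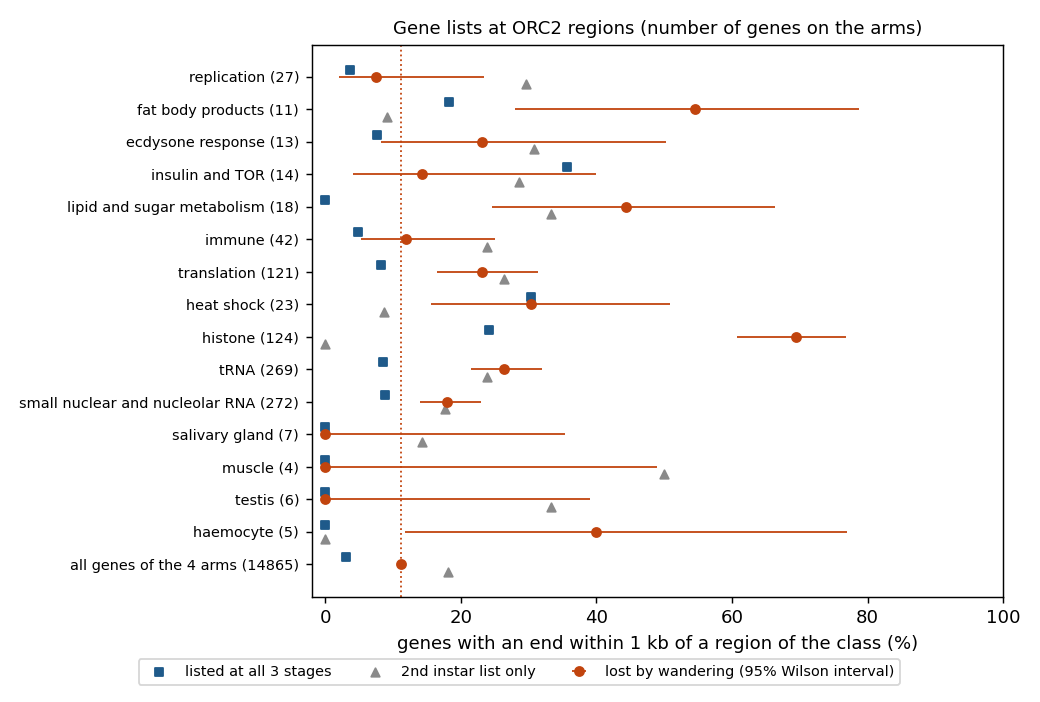
Percentage of the genes of each list (x axis) with an end within 1 kb of a region lost by wandering (circles, bars give 95% Wilson intervals), of a region listed at all 3 stages (squares) and of a region of 2nd instar only (triangles), with the number of genes on the arms in brackets and all genes at the bottom. The dotted line is the 11.1% of all arm genes near a lost region, and histone genes stand furthest to its right, at 69.4%.

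Along the chromosome the nearest region was of the same class in a larger share of cases than the class made up, for lost regions, regions of all stages and regions of 2nd instar only. The nearest 2nd instar region of a lost region was itself lost in 364 of 1016 cases, 35.8% (32.9 to 38.8), where lost regions made up 28.0% of all. The same share was 18.2% for regions of all stages, which made up 8.48%, and 68.1% for those of 2nd instar only, which made up 60.5%. The longest run of successive lost regions was 15. By the number of lost regions within 50 kb, the second group was on 2R, from position 3942194 to 3990637, where all 10 2nd instar regions were lost regions with peaks of both replicates at both stages, and the genes uex and asRNA:CR45139 were the ones nearby. The third, with 8 regions in 27413 bp of 2L from 23097488 to 23124900, had no annotated gene near it. All 8 were found in replicate 1 alone at 2nd instar and in replicate 2 alone at mid-3rd instar. These groups thus stood at opposite ends of replicate support. Whether reads map uniquely in these stretches was not analysed here.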

How the data were processed

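The authors aligned paired-end reads of 40 nt with Bowtie2 and called ORC2 peaks for each replicate against input by MACS2, keeping those under a q-value of 0.05. Versions are not given in the sources used here. The deposited lists give, per stage, merged regions with the names of the peaks of each replicate, and high-confidence peaks with an IDR, a score the authors computed between replicates and held under 0.1. The study names dm3, but positions in the lists fit the gene table of Release 6, so they were read as Release 6 and none was converted. Depth per library is not in the lists.

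The regions and gene lists were chosen with earlier results of these data known. The distance between regions was the number of bases between their edges, 0 where they overlap, and gene ends were measured from the region's midpoint, or, for genes in lists, from the region's edges. The mid-3rd instar peak counts given for a named region were summed over all mid-3rd instar regions within 1 kb of it. Counts were made with Python 3.11.15, pandas 2.3.3 and numpy 2.4.6, checked on simulated regions with known classes. Shares carry Wilson intervals of 95% (scipy 1.17.1). No test was run, since the rule used the lists and each stage has 2 replicates. Input libraries were not analysed here on their own. Named regions were the 15 of lowest IDR, the 3 widest, 3 on each side of each threshold, those at listed genes and the groups with most regions within 50 kb. Promoter motifs were not analysed here.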

Additional observations from a re-analysis of the deposited data

How the results depend on the processing

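No paired analysis was possible because counts and shares of regions come from no test. The chosen share of 28.0% was 26.2% with direct overlap, 30.2% at 2 kb, 35.4% at 5 kb, 34.0% among 2nd instar regions of both replicates, 17.3% with high-confidence lists and, in an alternative chosen after seeing the data, 7.0% with mid-3rd instar regions of both replicates. Leaving out 1 library gave 10.5% to 34.5%, the lowest without mid-3rd instar replicate 2, where 380 regions remained, and the highest without late-3rd instar replicate 2, with 1252. These settings kept whole merged regions that held a peak of the other replicate, with their merged edges. The share near a gene end, 67.2%, was 74.4% from the region's edges, 59.4% at 500 bp, 75.2% at 2 kb, 63.2% for protein-coding genes, 64.1% for regions chosen at 5 kb, 79.2% for high-confidence lists (added) and 65.2% to 70.1% without 1 library, and it exceeded that of the other arm regions in all 14 choices of regions. Support by both 2nd instar replicates was 59.9% at 5 kb, 78.3% with mid-3rd instar regions of both replicates and 65.6% to 75.5% without 1 library (added). The share with a 2nd instar high-confidence peak was 20.5%, 39.4% and 25.7% to 35.8% in the same settings. Of 156 counts under other choices for gene lists with a count above 0, added after seeing the data, 109 were within 1.5 times. The cause of these moves was not tested. The planned motif shares were not run.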

Other observations

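Among all annotated genes, kinds of RNA differed in how often an end lay within 1 kb of a lost region. It was 11.5% (1342 of 11645) for protein-coding genes, 26.7% (71 of 266) for tRNA genes, 16.5% (39 of 237) for snoRNA genes and 4.64% (79 of 1704) for long non-coding RNA genes. Small kinds had the highest shares, 41.7% (10 of 24) for genes labelled segment, 34.7% (17 of 49) for ncRNA and 33.3% (10 of 30) for snRNA. Genes named sncRNA:430a to sncRNA:430f and sncRNA:430j to sncRNA:430s lay in the histone array stretches described above and share the uncertainty of its copies. How many of the 17 ncRNA genes they make up was not read. At regions of 2nd instar only the shares were 19.9% for protein-coding, 23.7% for tRNA, 20.3% for snoRNA and 7.75% for long non-coding RNA genes. Of 96 rRNA genes 0 were at lost regions, and 0 at regions of all stages or of 2nd instar only. Whether reads map uniquely at these rRNA genes was not analysed here, so ORC2 is not shown to be absent from them.

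In windows of 1 Mb with at least 20 regions, 87 in all, the lost share had a median of 26.3% and a lowest value of 7.69%. The highest count was 39 of 78 regions at 21 to 22 Mb of 2L, which holds the histone array, and the lowest 2 of 26 on 2R.

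A set of lost regions lay far from any gene. The 3 furthest were all on 2R, between positions 6347324 and 6414748, with midpoints 96129.5, 92357.5 and 87068 bp from a gene end. In 2nd instar replicates 1 and 2 and then mid-3rd instar they had 0 and 1 and then 1 and 0 peaks, 0 and 1 and then 0 and 1 peaks, and 1 and 2 and then 2 and 1 peaks. How uniquely reads map there was not analysed here.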
